A study of Homo sapiens with 4 samples.

Results

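The genes described here encode 10 regulators of mRNA decay. They are the AU-rich element binders ZFP36, ZFP36L1 and ZFP36L2, the AU-rich element binder ELAVL1, the adaptors BTG1, BTG3, TOB1 and TOB2, and the deadenylase subunits CNOT7 and CNOT8. The genes were chosen by name, with earlier results of these data known. Every probe set whose platform annotation gave exactly 1 symbol equal to a listed gene was taken. This gave 34 probe sets, of which 26 passed a filter on dim signal, a mean over the 4 arrays of at least 3.32 log2. All 10 genes were among the 14043 genes tested. The cells were KYSE410, a cell line established from a human squamous carcinoma of the esophagus, and they had received 20 nM YM155 for 6 h (2 arrays) or no treatment (2 arrays). YM155 came to notice as an inhibitor of survivin expression, and the design compares transcript levels with and without it. The protocol text of the labels speaks of cisplatin (10 mM, 12 h) instead, but the source names and treatment entries of the samples say YM155 or untreated, and these were followed. The titles of the YM155 arrays also carry the codes B1 and B2, which nothing in the labels explains and which were not used. Nothing says that the arrays came from separate cultures, so the spread between them may be technical.

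Messenger RNAs usually begin to decay when their poly(A) tail is shortened by the CCR4-NOT complex, whose catalytic subunits include CNOT7 and CNOT8. ZFP36 (tristetraprolin) and its relatives bind AU-rich elements in the 3′ untranslated region and bring this complex to the message, while ELAVL1 (HuR) binds similar elements and is best known for stabilising the message. BTG and TOB proteins contact CNOT7 and CNOT8 directly, and several of them restrain proliferation when overproduced. ZFP36 is itself an immediate early gene, induced within minutes to hours of serum, growth factors or stress, and its own message carries AU-rich elements.

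The arrays did not stand equally close to each other. Of the 32768 probe sets past the filter, 56 differed by 2-fold or more between the YM155 arrays and 1690 between the untreated arrays. Untreated replicate 1 differed from the YM155 arrays at 739 and 850 probe sets and untreated replicate 2 at 1811 and 2140, so untreated replicate 2 stood apart from the other 3 arrays. The actin 3′ to 5′ signal ratio, a sign of RNA integrity, was 2.10 and 2.95 log2 in the YM155 arrays. It was 2.72 and 2.18 log2 in the untreated arrays, so the groups overlapped. The same ratio for GAPDH was 0.033 and 0.21 log2 in YM155 arrays, against 0.042 and 0.043 log2 in untreated arrays. YM155 replicate 2 had the highest ratio for both genes. All 5 squamous epithelium markers with a value (KRT5, KRT14, SOX2, DSG3 and CDH1) passed the filter. KRT6A, KRT17 and TP63 were listed too but had no value. The summed signal of the 5 was 4836 and 5146 on the linear scale in YM155 arrays, against 3662 and 4305 in untreated arrays. Taken singly, SOX2 and CDH1 overlapped between the groups. Of the markers of other cell types, 3 of 6 for fibroblasts, 1 of 4 for leukocytes and 2 of 4 for endothelium passed. COL1A1 (6.08 to 6.24 log2), DCN, PDGFRB, CD3E, PECAM1 and VWF were those that passed, while COL1A2, COL3A1, LUM, PTPRC, CD14, LYZ, CDH5 and KDR did not. The summed signal of these lists overlapped between the groups for fibroblasts (119 and 135 in YM155 arrays, 123 and 132 in untreated arrays), leukocytes (32.4 and 34.5, against 30.5 and 33.6) and endothelium (45.1 and 47.5, against 43.9 and 48.9). In bulk RNA, fewer cells that express a gene and less of its RNA per cell cannot be told apart.

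BTG3 had the largest negative difference of the 10 genes after YM155, at 0.553 of its untreated signal, and ZFP36, CNOT8 and CNOT7 also had both YM155 arrays below both untreated arrays. ZFP36L1, ZFP36L2, BTG1, TOB1, TOB2 and ELAVL1 had positive differences in their brightest probe set, of which only those of ZFP36L2 and ELAVL1 came without overlap of the arrays. None of the 10 passed limma's adjusted threshold of 0.05, and 0% of all genes did. The members' adjusted p lay between 0.254 and 0.854, while 0.163 was the smallest of any gene. Of the members, 2 had an unadjusted p under 0.05, BTG3 and CNOT8, both lower, where 12.7% of all genes reached that level and 7.48% did so on the lower side. Arrays of the groups did not overlap for 6 of the 10 genes, 4 lower and 2 higher, against 44.9% of all genes (25.6% lower and 19.3% higher). With 10 genes, that share is not far from the background. For ZFP36, ZFP36L2 and ELAVL1 the nearest arrays of the groups were nearly level (8.05 against 8.06, 8.53 against 8.53 and 10.26 against 10.26 log2). The count was 5 after a second quantile normalization, where the share over all genes was not counted. The median difference of the 10 was 0.12 log2, against -0.015 log2 over all genes tested, and their median absolute difference was 0.30 log2, against 0.17. With 2 arrays against 2, an exact two-sided permutation test cannot give a p below 0.333.

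**Figure D1:**
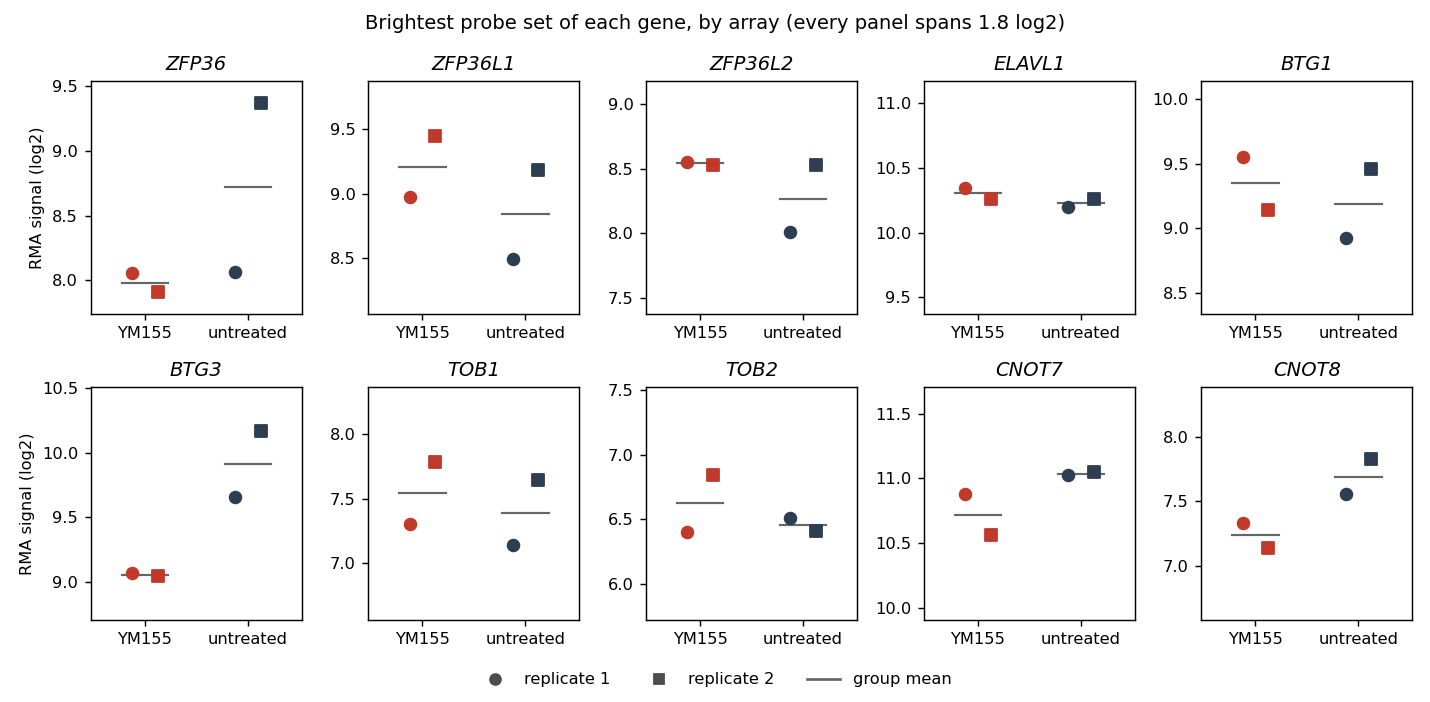
RMA signal (log2, vertical axis) of the brightest probe set of each of the 10 genes in the 2 YM155 arrays (red) and the 2 untreated arrays (dark blue), with circles for replicate 1, squares for replicate 2 and a line for the group mean. BTG3, CNOT7 and CNOT8 lie lower in both YM155 arrays, while ZFP36 at 8.06 in untreated replicate 1 is next to the YM155 arrays at 8.05 and 7.91 and far from untreated replicate 2 at 9.37.

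ZFP36, the founding member of the tristetraprolin family, was measured by a single probe set (201531_at). It read 8.05 and 7.91 log2 in the YM155 arrays, against 8.06 and 9.37 in the untreated arrays. The YM155 arrays and untreated replicate 1 thus lay together, and untreated replicate 2 stood alone above them. The difference of the means was -0.74 ± 0.45 log2 (SE, 95% interval -1.91 to 0.44, limma adjusted p = 0.572). Against untreated replicate 1 alone the YM155 mean differed by -0.080 log2, and against untreated replicate 2 by -1.39 log2. The immediate early genes FOS and EGR1, picked out after their values were seen, were highest in untreated replicate 2 as well, whereas JUN, DUSP1 and MYC, also picked out afterwards, were not. FOS, a subunit of the AP-1 factor, read 6.61 and 6.27 log2 in YM155 arrays, against 3.73 and 6.78 in untreated replicates 1 and 2. EGR1, a zinc finger factor induced by growth signals, read 8.66 and 8.42 log2 in YM155 arrays, against 6.94 and 9.81. JUN, another AP-1 subunit, read 11.18 and 11.06 log2 in YM155 arrays, against 9.83 and 10.21 log2 in untreated arrays. DUSP1 read 8.10 and 8.69 log2 and MYC 8.30 and 9.13 log2 in untreated replicates 1 and 2. Untreated replicate 2 thus lay above replicate 1 in JUN, DUSP1 and MYC too, with both YM155 arrays higher still. In FOS and EGR1 untreated replicate 1 was the lowest array and untreated replicate 2 the highest, whereas ZFP36 in untreated replicate 1 was at the YM155 level. The part of this gap between the untreated arrays in the ZFP36 difference was not tested.

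ZFP36L1 and ZFP36L2, the relatives of ZFP36 with the same type of zinc finger domain, had positive differences that lay mainly against untreated replicate 1. The brightest ZFP36L1 probe set (211962_s_at) read 8.97 and 9.45 log2 in YM155 arrays, against 8.50 and 9.18 in untreated arrays, and the groups overlapped. Its difference was 0.37 ± 0.30 log2 (SE, 95% interval -0.41 to 1.15, limma adjusted p = 0.672). It was 0.71 log2 against untreated replicate 1 and 0.026 log2 against untreated replicate 2. The second ZFP36L1 probe set (211965_at) read 5.37 log2 in each YM155 array, against 4.82 and 5.74 in the untreated arrays, which put the YM155 arrays between the untreated ones.

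ZFP36L2 was at 8.55 and 8.53 log2 in YM155 arrays, against 8.01 and 8.53 in untreated arrays (201368_at). The lower YM155 array and untreated replicate 2 were level to 2 decimals, so the groups barely cleared each other, and the difference was 0.27 ± 0.21 log2 (SE, limma adjusted p = 0.654). Its other probe sets past the filter gave 0.11 ± 0.23 log2 (201369_s_at) and -0.10 ± 0.13 log2 (227681_at), so the gene had no common sign over its probe sets.

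ELAVL1, the AU-rich element binder best known for stabilising messages, was nearly level in its brightest probe set. That probe set (201726_at) read 10.35 and 10.26 log2 in YM155 arrays, against 10.20 and 10.26 in untreated arrays. Its difference was 0.078 ± 0.13 log2 (SE, 95% interval -0.25 to 0.41, limma adjusted p = 0.850), an interval that does not hold a change as large as 1 log2 either way. The dimmer probe set 227746_at read 4.81 and 4.54 log2 in YM155 arrays, against 5.12 and 5.08 in untreated arrays, without overlap (-0.43 ± 0.16 log2, limma adjusted p = 0.438 over probe sets). Probe set 201727_s_at read 7.46 and 7.10 log2 in YM155 arrays, against 7.46 and 7.79 in untreated arrays. The ELAVL1 probe sets therefore gave both signs, with the brightest nearest to 0.

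BTG3, an antiproliferative adaptor of the BTG family, had the clearest difference of the 10 genes. Its brightest probe set (213134_x_at) read 9.07 and 9.05 log2 in YM155 arrays, against 9.66 and 10.17 in untreated arrays. Both YM155 arrays lay well below both untreated arrays, and the YM155 arrays nearly coincided. The difference was -0.86 ± 0.21 log2 (SE, 95% interval -1.40 to -0.31), a fold of 0.553, with a limma adjusted p of 0.254. Of all genes tested, 96.6% had a smaller absolute difference. The other bright probe set (205548_s_at) read 8.76 and 8.76 log2 in YM155 arrays, against 9.48 and 9.84 in untreated arrays, a difference of -0.90 ± 0.18 log2 (SE, limma adjusted p = 0.295 over probe sets). Both bright probe sets carry a suffix that marks probes shared between transcripts (_s_at) or possibly matching other sequences (_x_at). The remaining probe sets, which lack those suffixes, did not show the difference. Probe set 1556213_a_at read 4.18 and 4.24 log2 in YM155 arrays, against 4.15 and 4.21 in untreated arrays, and 215425_at read 3.42 and 3.65 log2, against 3.46 and 3.18. They lay near the filter, at a signal not shown to exceed background. The lower BTG3 value therefore rests on the 2 bright probe sets, which showed it against each untreated array (-0.60 and -1.11 log2 for 213134_x_at, -0.72 and -1.08 log2 for 205548_s_at).

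The sequences upstream of the transcription start of BTG3 and ZFP36 are shown because these were the members with the largest negative differences, and that of BTG1 because this BTG relative had no negative difference in any of its probe sets. They are 250 bases ending at the base before the start, from RefSeq on GRCh38.p14, where 7 of the 10 genes had an entry. Capitals mark matches on either strand to 6 motifs, none of which overlap in these windows. They are the TATA box searched as TATAAA, the NF-Y site searched as CCAAT, the GC box searched as GGGCGG, the core of the cAMP response element searched as TGACG, the AP-1 site searched as TGACTCA and the E-box searched as CACGTG.
BTG3, chr21:17612902-17613151, minus strand: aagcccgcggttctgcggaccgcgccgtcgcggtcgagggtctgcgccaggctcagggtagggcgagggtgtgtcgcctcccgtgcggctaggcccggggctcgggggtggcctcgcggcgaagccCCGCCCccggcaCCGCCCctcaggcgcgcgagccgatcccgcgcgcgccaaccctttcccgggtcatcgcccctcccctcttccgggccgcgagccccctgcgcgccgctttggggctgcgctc
ZFP36, chr19:39406597-39406846, plus strand: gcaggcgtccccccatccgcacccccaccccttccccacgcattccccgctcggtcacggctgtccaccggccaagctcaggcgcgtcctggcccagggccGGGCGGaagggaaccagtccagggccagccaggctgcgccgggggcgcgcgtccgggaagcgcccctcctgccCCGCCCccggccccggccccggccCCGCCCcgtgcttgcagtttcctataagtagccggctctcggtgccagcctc
BTG1, chr12:92145847-92146096, minus strand: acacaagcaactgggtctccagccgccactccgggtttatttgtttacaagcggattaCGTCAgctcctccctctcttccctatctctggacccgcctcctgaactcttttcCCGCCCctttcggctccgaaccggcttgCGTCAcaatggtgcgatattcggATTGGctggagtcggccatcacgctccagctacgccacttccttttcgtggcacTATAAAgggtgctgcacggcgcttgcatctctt
The BTG3 window held 2 GC boxes and the ZFP36 window 3, with no match to the other motifs. The BTG1 window held 1 GC box, 1 NF-Y site, 1 TATA box and 2 cAMP response element cores. Over 35116 windows of the same length, 42.6% held a GC box, 32% an NF-Y site, 10.7% a TATA box, 21.2% the cAMP response element core, 4.2% an AP-1 site and 6.34% an E-box. A match describes letters only.

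BTG1, whose protein binds CNOT7 and CNOT8, was not lower in any probe set. Probe set 200920_s_at read 9.55 and 9.14 log2 in YM155 arrays, against 8.93 and 9.46 in untreated arrays, with overlap. Its difference was 0.16 ± 0.25 log2 (SE, limma adjusted p = 0.848), and it turned to -0.11 log2 against untreated replicate 2 alone. Probe set 200921_s_at, slightly dimmer, read 9.12 and 9.29 log2 in YM155 arrays, against 8.46 and 8.96 in untreated arrays. Here the groups did not overlap, at 0.49 ± 0.22 log2 (SE, limma adjusted p = 0.4998 over probe sets). BTG2 and BTG4 were listed as further BTG genes, but neither was tested. BTG1 and BTG3, of the same family, thus stood on opposite sides of 0, a contrast between genes that was not itself tested.

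TOB1 and TOB2, the larger BTG/TOB proteins that also bind the poly(A)-binding protein, had probe sets of both signs. TOB1 was at 7.31 and 7.79 log2 in YM155 arrays, against 7.14 and 7.64 in untreated arrays (202704_at, 0.16 ± 0.26 log2 SE, limma adjusted p = 0.854). Its second probe set (228834_at) was at 6.18 and 6.44 log2, against 6.31 and 6.69, a difference of -0.19 ± 0.20 log2. In both, replicate 2 lay above replicate 1 within each group, and the groups overlapped.

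TOB2 was at 6.41 and 6.84 log2 in YM155 arrays, against 6.51 and 6.41 in untreated arrays (222243_s_at, 0.17 ± 0.19 log2 SE, limma adjusted p = 0.773). The dimmer probe set 221496_s_at was at 5.16 and 5.20 log2 in YM155 arrays, against 5.34 and 5.66 in untreated arrays, without overlap (-0.32 ± 0.17 log2). The third, 234720_s_at, lay near the filter at 3.24 and 3.33 log2, against 3.33 and 3.56.

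CNOT8, a catalytic deadenylase subunit, had negative differences in all 3 of its probe sets. The brightest (202164_s_at) read 7.33 and 7.14 log2 in YM155 arrays, against 7.55 and 7.83 in untreated arrays, without overlap. Its difference was -0.45 ± 0.16 log2 (SE, 95% interval -0.88 to -0.025, limma adjusted p = 0.368). Probe set 202162_s_at read 7.23 and 6.72 log2 in YM155 arrays, against 7.32 and 8.15 in untreated arrays, a larger difference (-0.76 ± 0.34 log2) of which most lay against untreated replicate 2. Probe set 202163_s_at read 6.80 and 7.15 log2, against 6.96 and 7.25, with overlap (-0.13 ± 0.19 log2).

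CNOT7, the paralogous catalytic subunit, was lower only in its brightest probe set. That one (218250_s_at) read 10.88 and 10.56 log2 in YM155 arrays, against 11.03 and 11.05 in untreated arrays, without overlap (-0.32 ± 0.16 log2 SE, limma adjusted p = 0.4998). The next, nearly as bright (225053_at), was level, at 10.16 and 10.30 log2 in YM155 arrays and 10.25 and 10.25 in untreated arrays (-0.018 ± 0.14 log2, 95% interval -0.38 to 0.34). A dimmer one (1552344_s_at) stood higher, at 5.86 and 5.98 log2, against 5.81 and 5.60. Probe set 233019_at, whose mean lay below the filter, read 3.38 and 3.66 log2 in YM155 arrays, against 2.29 and 2.79 in untreated arrays, the widest gap among the 8 members' probe sets below the filter.

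**Figure D2:**
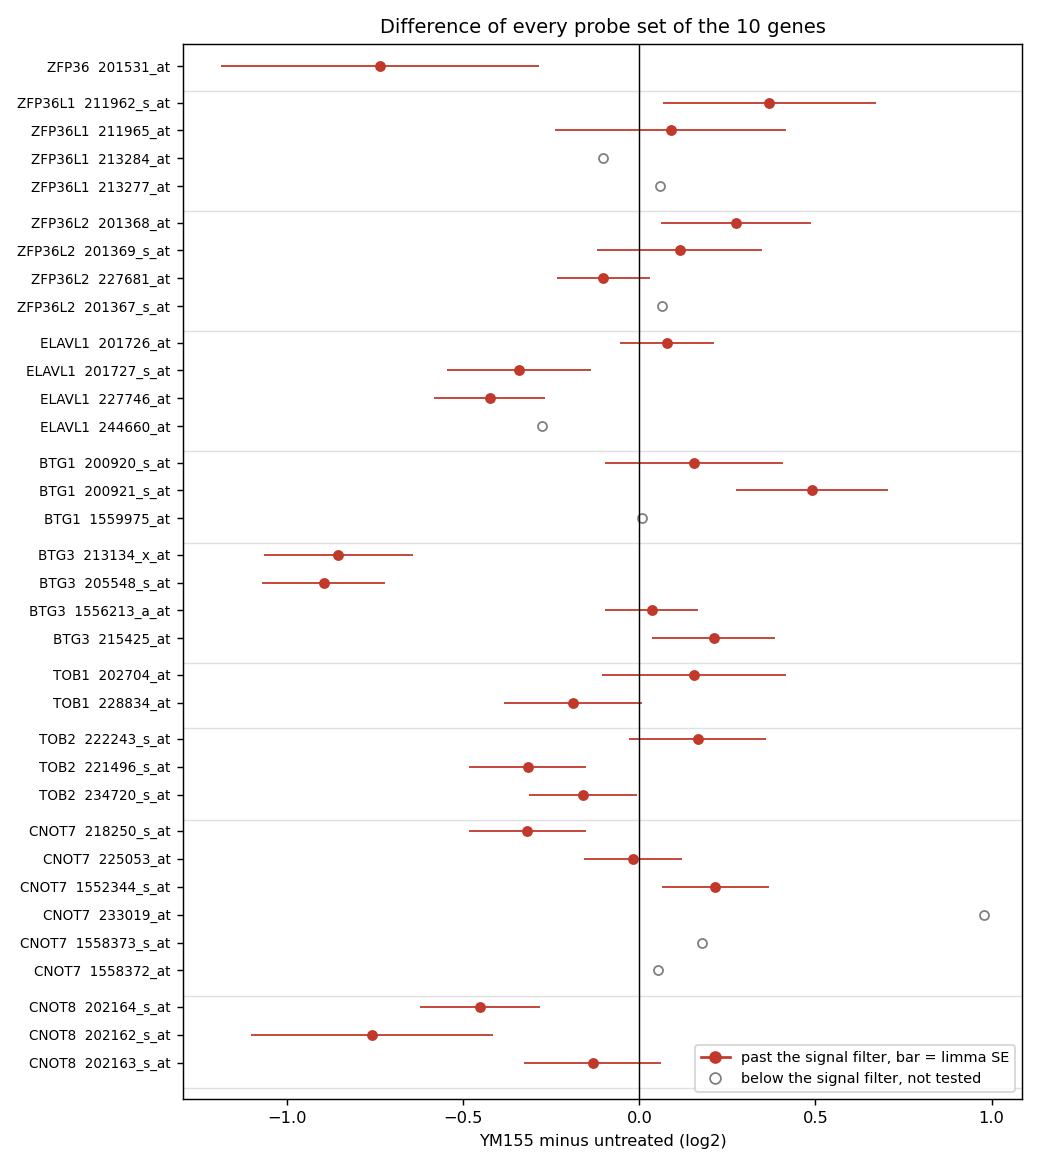
Difference of YM155 minus untreated (log2, horizontal axis) for each of the 34 probe sets of the 10 genes, brightest first within a gene, with bars for limma's standard error and open circles for the 8 probe sets below the filter. The 2 bright BTG3 probe sets lie at -0.86 and -0.90 and its dim ones at 0.035 and 0.21. ELAVL1, TOB1, TOB2, CNOT7 and ZFP36L2 also have probe sets past the filter on both sides of 0.

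Counted by probe set, 12 of the 26 past the filter had positive and 14 negative differences. None passed an adjusted p of 0.05 by limma, as for 0% of all 32768 probe sets, and 4 had an unadjusted p under 0.05 (2 of BTG3, 1 of CNOT8 and 1 of ELAVL1, all lower), where 11.1% of all probe sets did, 6.06% lower and 5.03% higher. The groups did not overlap for 13 of the 26, 9 lower and 4 higher, against 43.3% of all probe sets (23.9% lower and 19.4% higher). Of the 10 genes, only ZFP36, ZFP36L1, BTG1 and CNOT8 had 1 sign throughout the probe sets past the filter, and ZFP36 has a single probe set.

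The untreated arrays differed more than the YM155 arrays did for 7 of the 10 genes, and for 68.2% of all genes. Untreated replicate 2 was above untreated replicate 1 for 9 of the 10 genes, with TOB2 as the exception, while 44.9% of all genes were. The median gap, replicate 2 minus replicate 1, was 0.51 log2 for the 10 genes and -0.038 log2 for all genes. In size, the median gap between the untreated arrays was 0.51 log2 for the members and 0.23 log2 for all genes, and that between the YM155 arrays 0.25 and 0.12 log2. For 5 of the 10 genes the gap between the untreated arrays was larger than the difference between the groups. The sign of the difference was the same against each untreated array for 8 genes, and BTG1 and TOB1 changed sign. Neither of these last counts was made over all genes.

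Without untreated replicate 1, limma called ZFP36 and BTG3 lower, where 8.01% of all genes were called and 3.71% on the lower side. In that fit ZFP36 stood at -1.39 ± 0.12 log2 and BTG3 at -1.11 ± 0.10 log2 (SE), each with a limma adjusted p of 0.0407. CNOT8 was at -0.59 ± 0.14 log2 with an adjusted p of 0.0871. The calls ended when all probe sets were fitted one by one, where ZFP36 and BTG3 had a limma adjusted p of 0.0633 and 0 of 32768 probe sets were called. A lone untreated array is there assumed to vary like the YM155 arrays, and for ZFP36 the other untreated array was at the YM155 level. BTG3 was lower against each of them.

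**Figure D3:**
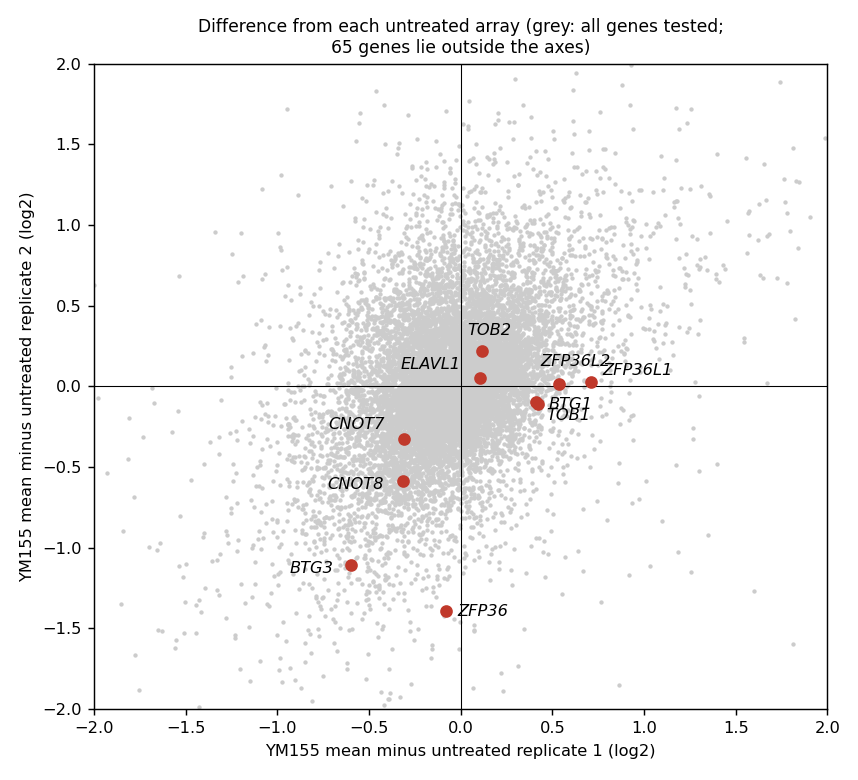
YM155 mean minus untreated replicate 1 (horizontal axis, log2) against YM155 mean minus untreated replicate 2 (vertical axis, log2) for the 10 genes (red) over all 14043 genes tested (grey, 65 of them outside the axes). Both axes contain the YM155 mean. BTG3 lies at -0.60 and -1.11, ZFP36 at -0.080 and -1.39, and ZFP36L1 and ZFP36L2 lie right of 0 and near 0 on the vertical axis.

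The other genes of the deadenylation machinery had no common direction. Of 14 tested genes of the CCR4-NOT and PAN2-PAN3 complexes, PARN and the poly(A)-binding proteins, 7 had positive and 7 negative differences, and 3 stood higher (21.4%, against 19.3% of all genes) and 5 lower (35.7%, against 25.6%) without overlap. The median was -0.0084 log2. CNOT6L, which with CNOT6 supplies the other type of catalytic subunit, read 7.54 and 7.64 log2 in YM155 arrays, against 8.60 and 8.08 in untreated arrays. Its difference was -0.75 ± 0.21 log2 (SE, limma adjusted p = 0.293), and its second probe set gave -0.75 too. CNOT6 stood at -0.35 ± 0.14 log2 and PAN2, the catalytic subunit of the second deadenylase, at -0.45 ± 0.15 log2. CNOT4, a ubiquitin ligase linked to the complex, was on the other side at 0.64 ± 0.19 log2, but its second probe set gave -0.23 log2.

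Among 18 decapping and 5′ decay genes, 7 were positive (38.9%, against 47.1% of all genes) and 11 negative, with a median of -0.093 log2. In each direction 6 had no overlap (33.3%, against 19.3% of all genes higher and 25.6% lower). The 5′ exonuclease gene XRN1 read 5.95 and 5.90 log2 in YM155 arrays, against 6.44 and 6.38 in untreated arrays (-0.48 ± 0.12 log2 SE), though its probe sets ran up to 0.012 log2. The decapping activator helicase DDX6 read 9.18 and 9.32 log2, against 8.82 and 8.81 (0.43 ± 0.13 log2), with other probe sets from 0.39 to 0.70 log2. LSM14B stood at -0.50 ± 0.17 log2 in its brightest probe set and up to 0.10 in others, and LSM2, of the LSM ring, at -0.34 ± 0.13 log2. Of 17 exosome and SKI complex genes, 4 were positive (23.5%, against 47.1% of all genes) and 13 negative, with a median of -0.12 log2. Without overlap, 5 stood lower (29.4%, against 25.6%) and 1 higher (5.88%, against 19.3%). The exosome subunits EXOSC9 (-0.56 ± 0.14 log2) and EXOSC7 (-0.45 ± 0.15 log2) stood lowest together with HBS1L, whose locus also encodes a factor that links the SKI complex to the exosome (-0.47 ± 0.28 log2), and the catalytic subunit DIS3 highest (0.31 ± 0.14 log2). That order is of brightest probe sets. In other probe sets EXOSC7 reached -0.088, HBS1L -0.027 and DIS3 -0.11 log2, while SKIC3 reached 0.63 log2. HBS1L was at -0.10 log2 against untreated replicate 1 and -0.84 log2 against untreated replicate 2. The exosome median was -0.18 log2 against untreated replicate 1 and 0.055 log2 against untreated replicate 2.

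Other binders of elements in the 3′ untranslated region went both ways, 10 of 22 positive (45.5%, against 47.1% of all genes) and 12 negative, with a median of -0.036 log2. In each direction 6 had no overlap (27.3%, against 19.3% of all genes higher and 25.6% lower). IGF2BP3, an oncofetal mRNA-binding protein, read 7.42 and 7.17 log2 in YM155 arrays, against 7.74 and 8.55 in untreated arrays (-0.85 ± 0.30 log2 SE). ZC3H12C, a relative of the endonuclease regnase-1, read 7.93 and 8.01 log2, against 7.67 and 6.98 (0.64 ± 0.25 log2). The cytoplasmic polyadenylation factors CPEB2 (0.51 ± 0.15 log2) and CPEB4 (0.39 ± 0.13 log2) stood higher, although another CPEB2 probe set gave -0.50 log2. Among 16 tested genes of kinase, phosphatase and 14-3-3 families linked to ZFP36 proteins, 11 were positive (68.8%, against 47.1% of all genes), with a median of 0.070 log2. Not every gene listed is known to act on ZFP36 itself, and MAPK14 was listed but not tested. Without overlap, 4 stood higher (25%, against 19.3%) and 1 lower (6.25%, against 25.6%). SFN, the epithelial 14-3-3 sigma gene, read 13.15 and 13.19 log2 in YM155 arrays, against 12.25 and 12.74 in untreated arrays (0.68 ± 0.20 log2). YWHAG stood at 0.26 ± 0.13 log2, YWHAH at -0.22 ± 0.20 log2 and PPP2R1A at -0.28 ± 0.21 log2. With each array left out in turn, YWHAH changed sign (-0.47 to 0.024 log2) and PPP2R1A ran from -0.47 to -0.083 log2. No gene of these lists passed limma's adjusted threshold, and the smallest adjusted p among them was 0.266, for EXOSC9.

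Messages with AU-rich elements reported to be bound by ZFP36 or ELAVL1 had mostly positive differences. Of 44 listed, TNF, CXCL1, CSF2 and BIRC3 were not tested. The median of the 40 tested was 0.31 log2, against -0.015 log2 over all genes. Of these 40, 28 were positive (70%, against 47.1% of all genes) and 12 negative. Both YM155 arrays lay above both untreated arrays for 17 of them (42.5%, against 19.3% of all genes) and below for 6 (15%, against 25.6%). At an unadjusted p under 0.05 there were 14 higher (35%, against 5.23%) and 3 lower (7.5%, against 7.48%), and 0 passed limma's adjusted threshold. The list holds many immediate early genes and ZFP36 itself, and earlier results for several of its genes were known when it was drawn up. It pools messages reported for ZFP36 with those reported for ELAVL1 and was not split by binder. Its median was 0.28 log2 against untreated replicate 1 and 0.39 log2 against untreated replicate 2, and 0.16 log2 when a gene's probe sets were averaged.

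The largest differences in this list belonged to PLAUR, DUSP1, MYC and SOCS3. SOCS3, a feedback inhibitor of cytokine receptors, read 7.69 and 7.47 log2 in YM155 arrays, against 6.01 and 6.49 in untreated arrays (1.33 ± 0.21 log2 SE, limma adjusted p = 0.185). Another of its 4 probe sets gave -0.12 log2. PLAUR, the urokinase receptor gene, ran from 0.61 to 2.01 log2 over its 3 probe sets, and the largest of these was 2.83 log2 against untreated replicate 1 and 1.18 log2 against untreated replicate 2. DUSP1, a MAP kinase phosphatase gene, ran from -0.048 to 1.85 log2. MYC, the growth-promoting transcription factor gene, had 1 probe set, at 1.38 ± 0.34 log2. TNFAIP3, a brake on NF-kappaB signalling, is named after its values were seen, since it had the smallest adjusted p in the list. It read 9.66 and 9.64 log2 in YM155 arrays, against 8.72 and 8.66 in untreated arrays (0.96 ± 0.12 log2, limma adjusted p = 0.163), with arrays of each group close together. Its second probe set gave 1.09 log2. Without overlap, 6 genes of the list were lower, against 17 higher. Of those lower, IER3 and VEGFA are also named after their values were seen. IER3 stood at -0.87 ± 0.20 log2 (SE), and VEGFA at -0.71 ± 0.34 log2, with 4 probe sets from -1.26 to -0.70 log2.

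**Figure D4:**
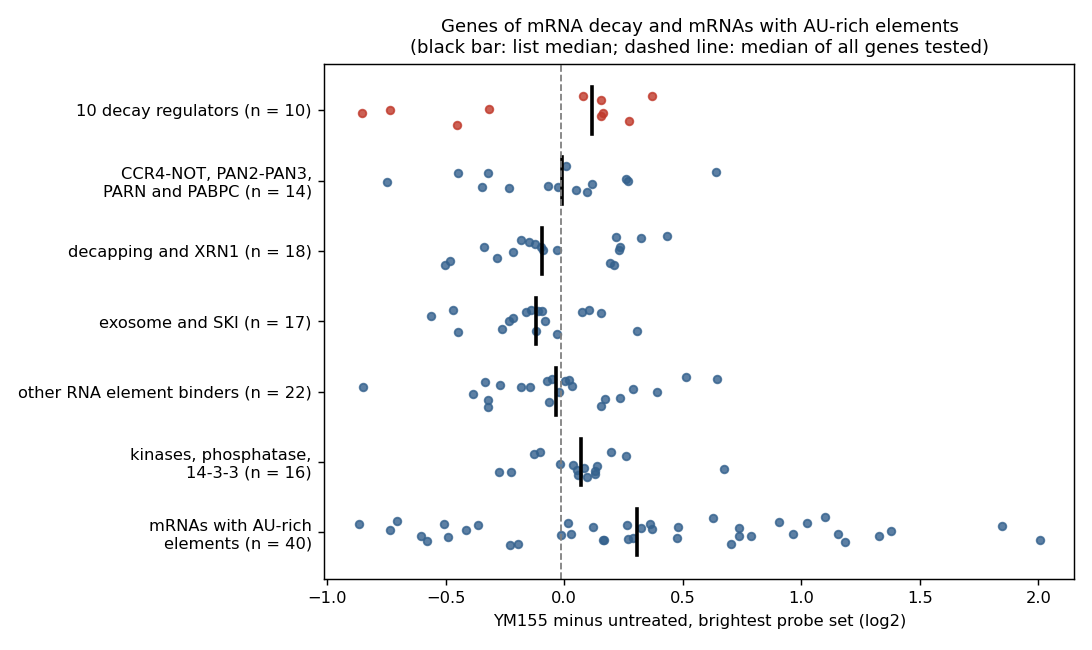
Difference of YM155 minus untreated (log2, horizontal axis) of the brightest probe set for the 10 decay regulators (red) and for each list of related genes (blue), with a black bar at the list median and a dashed line at the median of all genes tested. The medians of the machinery lists lie between -0.12 and 0.070, and that of the messages with AU-rich elements at 0.31, with PLAUR furthest right at 2.01.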

How the data were processed

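Per the labels' protocols, each array received biotin-labelled cRNA prepared with an Affymetrix 3′ kit, starting from 200 ng of RNA. The authors deposited an intensity for every probe set on every array, made with RMA per the submitters' processing notes, on a linear scale (2.42 to 15214). The sources used here give no RMA version. RMA equalises the arrays (medians 16.0 to 16.3), so a shift common to all genes is not measured. After log2, 62 control probe sets of 54675 and those below the 40th percentile of mean signal were left out, which kept 32768. The platform annotation gave 41091 probe sets 1 symbol, and the brightest stood for each of 14043 genes. Groups, set by title, were compared with limma 3.58.1 in R 4.3.3 (lmFit, eBayes, two-sided), adjusted by Benjamini-Hochberg over all genes, or over all 32768 probe sets for other than the brightest. Members and lists were chosen with earlier results of these data known. In each list, up to 4 genes of largest absolute difference were named, besides those said to be named after their values were seen. Alternatives were other filters, probe set summaries, normalizations and variance models, the replicate number as a block, and each array left out. The number of arrays limits the precision.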

Additional observations from a re-analysis of the deposited data

How the results depend on the processing

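Limits: 2 arrays per group leave 2 residual degrees of freedom, no detection calls were used, and dim probe sets have no shown signal over background. No paired structure is given by the labels, and the deviations of same-numbered arrays correlated at 0.00036 over genes. With the replicate number as a block, limma called 0 genes higher and 0 lower, and 0 members. Over the arrays left out, called genes ran from 0 to 604 higher and from 0 to 521 lower, called members from 0 to 2, and members without overlap from 6 to 9; all calls came without untreated replicate 1, and 0 probe sets were called in the fit over probe sets in any such setting. With an array left out, 1 array is set against 2, where a lack of overlap is easier to reach than with 2 against 2. The share of all genes without overlap was not counted in those settings. The range of 6 to 9 members therefore cannot be read as clearer separation of the groups. With only probe sets lacking the _x_at or _s_at suffix, BTG1, TOB2 and CNOT8 had none past the filter and dropped out. Of the remaining members 3 had no overlap, and the share over all genes was not counted there. BTG3 then stood at 0.035 log2 from a dim probe set, and the median was 0.15 for other element binders and 0.076 for kinases, phosphatases and 14-3-3 genes. With probe sets averaged per gene, TOB1 stood at -0.016, TOB2 at -0.10, ELAVL1 at -0.23, BTG3 at -0.38 and CNOT7 at -0.040, and the medians were -0.072 for the 10 genes, 0.0055 for the kinase list and 0.16 for messages with AU-rich elements. A second quantile normalization and median centring gave the kinase list 0.077 and 0.079. Over the arrays left out, differences that changed sign ran from -0.11 to 0.42 for BTG1, -0.097 to 0.41 for TOB1, -0.052 to 0.38 for TOB2, -0.37 to 0.55 for ZFP36L1 211965_at, -0.18 to 0.41 for ZFP36L2 201369_s_at, -0.091 to 0.055 for CNOT7 225053_at and -0.30 to 0.040 for CNOT8 202163_s_at. List medians ran from -0.10 to 0.11 for the 10 genes, -0.19 to 0.034 for deadenylases, -0.13 to 0.052 for decapping, -0.18 to 0.055 for the exosome, -0.13 to 0.068 for other binders, 0.053 to 0.077 for the kinase list and 0.28 to 0.39 for messages with AU-rich elements. Apart from the cases given, members kept their sign in the settings run. Over the arrays left out, BTG3 lay between -1.11 and -0.60 and ZFP36 between -1.39 and -0.080. The cause of these changes was not tested.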
